A study of Mus musculus with 6 samples.

Results

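Conventional CD4 T cells are the helper arm of the T cell compartment. They read peptides on MHC class II through the T cell receptor and the Cd4 co-receptor, and they steer other leukocytes with cytokines and with surface signals such as CD40 ligand. Naive cells recirculate between blood and lymph nodes with Ccr7, S1pr1 and Klf2, while effector and memory cells of tissues such as the lung give up those genes for chemokines, adhesion molecules and retention genes. The cells described here were chosen from single-cell RNA libraries of mouse lung leukocytes by what they carried. Each had at least 1 UMI (unique molecular identifier, 1 captured RNA molecule) of Cd4 and at least 1 summed over Cd3e, Cd3d, Cd3g and Trac. None had a UMI of Cd8a, Cd8b1, Foxp3 or Il23r, and each had at most 1 UMI summed over Mki67, Top2a and Birc5 and at most 1 summed over Cd79a, Plet1, Siglech, Retnlg, Ace and Vcan. This gave 773 cells among 71634 barcodes kept, with 67, 133 and 213 cells in normal lung replicates 1, 2 and 3 and 120, 175 and 65 cells in AML lung replicates 1, 2 and 3. These libraries are called normal 1 to 3 and AML 1 to 3 below.

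The study set 3 libraries from normal mouse lung beside 3 from lung infiltrated by acute myeloid leukaemia (AML). Every lung was perfused and digested with enzymes, and leukocytes were taken with magnetic beads against CD45. The strain, age and treatment of the mice and the leukaemia model are not given in the sources used here, and neither is whether each library came from its own animal. The p-values therefore measure only the spread between these libraries, which may be technical.

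The genes of the rule describe the choice and are not results. Among genes outside the rule, the cells carried those of the helper lineage. Summed per library and given as CPM, a gene's UMIs scaled to a common total, Trbc2, a constant segment of the T cell receptor beta chain, lay between 639 and 905 in the 6 libraries, against 1.05 to 16.5 in B cells. Cd40lg, the ligand with which helper cells activate B cells and macrophages, lay between 124 and 236 CPM, against 1.98 to 7.18 in CD8 T cells of the same libraries. Zbtb7b, the transcription factor that fixes the CD4 fate, lay between 17.4 and 42.6 CPM, against 1.08 to 5.05 in CD8 T cells. In CPM these 3 genes matched the label of conventional CD4 T cells in all 6 libraries, but in AML 3 they rest on few cells. There Zbtb7b was seen in 6.15%, Cd40lg in 18.5% and Trbc2 in 52.3% of the 65 cells, which were also shallower. Elsewhere Zbtb7b was seen in 9.71% to 25.4%, Cd40lg in 29.7% to 62.7% and Trbc2 in 78.4% to 95.5%. Tyrobp, a myeloid gene, was seen in 44.6% of the cells of AML 3, against 6.02% to 18.3% elsewhere. The label is thus less sure in AML 3.

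AML 3 stood apart in depth and purity, and results that rest on it are given with and without it. Total UMIs per library ran from 43913245 to 66513826, but AML 3 spread them over 35229 kept barcodes, against 3538 to 12974 in the other libraries. The CD4 T cells had a median of 9038, 5273 and 4230 UMIs in normal 1, 2 and 3, of 7723.5 and 4735 in AML 1 and 2, and of 1164 in AML 3. Their summed UMIs ran from 592058 to 1083516 in 5 libraries and came to 93997 in AML 3. At the threshold of the rule, 92.3% of the cells of AML 3 had only 1 Cd4 UMI, against 31.3% to 58.3% elsewhere, and 56.9% had only 1 CD3 complex UMI, against 2.99% to 11.4%. Just outside it, 111 barcodes of AML 3 and 25 to 74 of each other library had Cd4 but no CD3 complex UMI. Genes of other cell types were also more frequent in AML 3. There 40.0% of the CD4 T cells had 5 or more UMIs over 4 antigen-presentation genes (Cd74, H2-Aa, H2-Ab1, H2-Eb1) or over 5 myeloid genes (Lyz2, Tyrobp, Fcer1g, Csf1r, Cst3), against 3.01% to 11.4% in the other libraries. Such cells, 77 in all, are called mixed, and the other 696 unmixed. The split was chosen after seeing the data. Between 66 and 339 barcode sequences of each library also occurred in another library, among the CD4 T cells 1 in normal 3 and AML 2, and 10 CD4 T cells were predicted doublets, which were kept.

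**Figure D1:**
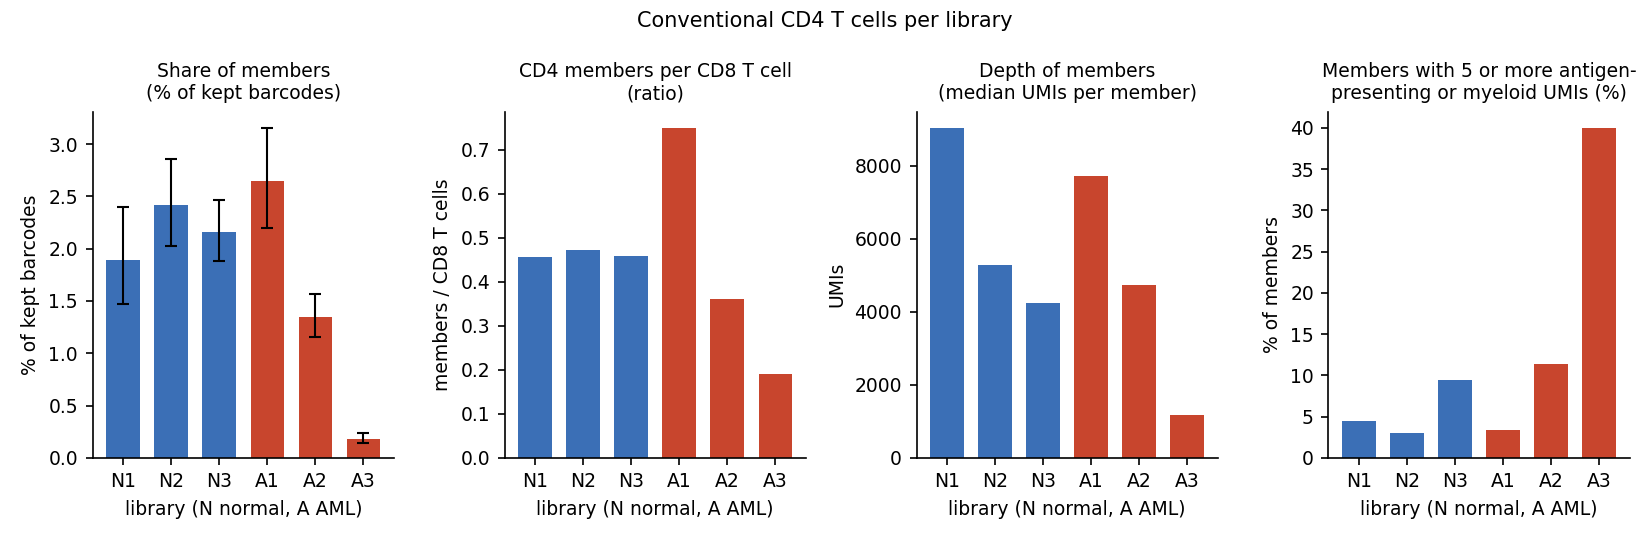
Conventional CD4 T cells in each library, N for normal and A for AML lung: their share of kept barcodes in percent (error bars, exact 95% binomial intervals), their number per CD8 T cell, their median UMIs, and the percent that are mixed. AML 3 has the lowest share, ratio and depth and the highest mixed percent, while AML 1 has the highest share and ratio.

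The abundance of CD4 T cells was compared between AML and normal lung as a share of all kept leukocytes. They made up 1.89%, 2.42% and 2.16% of kept barcodes in normal 1, 2 and 3, and 2.64%, 1.35% and 0.185% in AML 1, 2 and 3. The exact 95% binomial intervals, which cover counting error only, were 1.16% to 1.56% in AML 2 and 0.142% to 0.235% in AML 3. The normal libraries were close together, AML 1 lay above all of them, and AML 2 and 3 lay below all of them. The mean share was 1.39% ± 1.23 (SD, n = 3) in AML and 2.16% ± 0.261 (SD, n = 3) in normal lung, a difference of -0.765 percentage points that an exact two-sided permutation test did not tell from 0 (p = 0.4, with 0.1 the smallest p that 3 against 3 allows). After every barcode was thinned to 500 UMIs, so that depth no longer differed, the rule found 0.113%, 0.291% and 0.264% in normal 1, 2 and 3 and 0.397%, 0.170% and 0.0511% in AML 1, 2 and 3. The means were then 0.206% in AML and 0.223% in normal lung (exact two-sided permutation p = 1).

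CD8 T cells chosen by the mirrored rule gave a yardstick within the T cells. There were 0.456, 0.473 and 0.458 CD4 T cells per CD8 T cell in normal 1, 2 and 3, and 0.75, 0.362 and 0.190 in AML 1, 2 and 3. The ratio was nearly the same in every normal library, while the AML libraries fell on both sides of it. The log2 ratio differed by -0.31 between the groups (exact two-sided permutation p = 0.7), and without AML 3 the difference was 0.17.

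**Figure D2:**
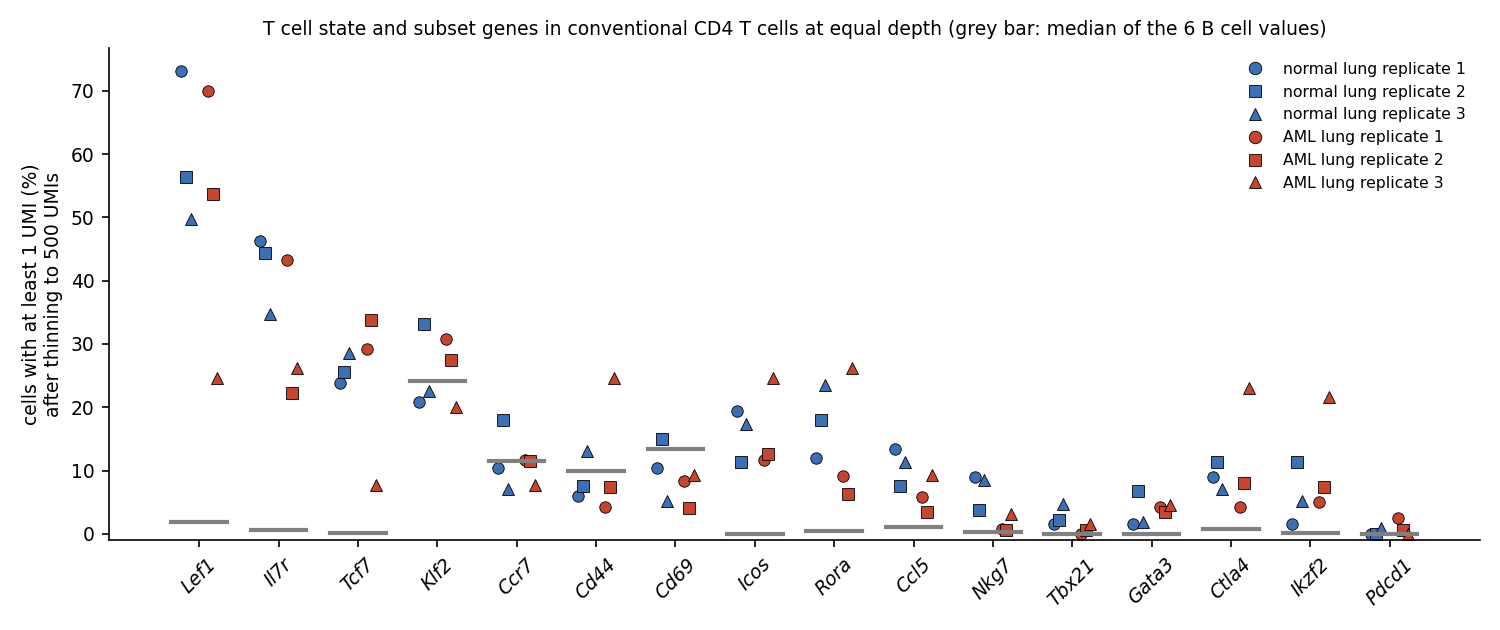
Percent of conventional CD4 T cells with at least 1 UMI of each gene after every cell was thinned to 500 UMIs, by library (points), with the median of the 6 B cell values as a grey bar for comparison. Lef1, Il7r and Tcf7 lie far above the B cell bar, Ccr7, Cd44 and Cd69 lie near it, and AML 3 is the lowest library for Lef1 and Tcf7 and the highest for Ctla4 and Ikzf2.

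Most of the cells carried genes of naive and central memory cells. At 500 UMIs a cell, Lef1, a transcription factor of naive T cells, was seen in 73.1%, 56.4% and 49.8% of the cells of normal 1, 2 and 3 and in 70.0%, 53.7% and 24.6% of those of AML 1, 2 and 3, against 1.26% to 2.67% of B cells. AML 3 was low and the other AML libraries lay among the normal ones. Il7r, the receptor for the survival cytokine IL-7, was seen in 46.3%, 44.4% and 34.7% of normal and 43.3%, 22.3% and 26.2% of AML cells, against 0.448% to 1.84% of B cells; AML 2 and 3 lay below every normal library. Ccr7, Klf2, Cd44 and Cd69 were seen at about the share they had in B cells, which use these genes too, so their shares carry little about the CD4 T cells. Unthinned, Lef1 was seen in a mean of 92.2% of normal and 80.1% of AML cells.

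Genes of polarised helper subsets were sparse. At equal depth Il17a, the defining cytokine of Th17 cells, and Il13, a Th2 cytokine, were seen in 0 of the 773 cells. This allows up to 0.388% of cells with a UMI at this depth. For Il17a the 0 is not independent of the rule, which left out every cell with a UMI of the type 17 gene Il23r. Il4 was seen in a single library, at 0.469% of normal 3. Tbx21, the Th1 master regulator, was seen in 0% to 4.69% of the cells and Gata3, its Th2 counterpart, in 1.49% to 6.77%. Unthinned, Gata3 was seen in 40.3%, 37.6% and 30.5% of normal and 21.7%, 17.7% and 12.3% of AML cells. Those shares did not overlap (exact two-sided permutation p = 0.1), but depth also differed between libraries. In cells thinned to 1000 UMIs, mean shares of Gata3 were 10.1% in normal and 7.33% in AML lung (exact two-sided permutation p = 0.5). Of 40 genes compared this way, 3 did not overlap between the groups and so reached the smallest p of an exact two-sided permutation test (0.1; adjusted p = 1). A count of 3 in 40 is not above what a chance of 0.1 per gene gives. It is also not above the 13% of the 7481 genes tested for expression below that did not overlap. The 3 genes are therefore given as values and not as differences between the groups. Cd40lg was seen in 11.9%, 10.5% and 7.98% of normal and 4.17%, 7.43% and 6.15% of AML cells. Nkg7, a granule protein of cytotoxic and Th1 cells, was seen in 8.96%, 3.76% and 8.45% of normal and 0.833%, 0.571% and 3.08% of AML cells. The third, Ifng, was seen in 0.469% to 1.49% of normal cells and in 0 of the 360 AML cells, which allows up to 0.833%; the normal shares are close to the level of 1 cell a library. Unthinned mean shares in normal and AML lung were 50.9% and 28.8% for Cd40lg, 17.2% and 7.83% for Nkg7 and 5.71% and 2.67% for Ifng, and of the 3 only Cd40lg kept no overlap. In cells thinned to 1000 UMIs, the mean share of Ifng was higher in AML lung, 2.84% against 1.73%, and Cd40lg overlapped. In B cells thinned alike, Cd40lg reached at most 0.115% and Nkg7 at most 1.95%.

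Ikzf2 and Ctla4, which regulatory T cells carry at high levels, were high in AML 3. Ikzf2, the transcription factor Helios, was seen in 1.49%, 11.3% and 5.16% of normal cells, in 5.0% and 7.43% of the cells of AML 1 and 2, and in 21.5% of those of AML 3. Ctla4, an inhibitory receptor, was seen in 8.96%, 11.3% and 7.04% of normal cells, in 4.17% and 8.0% of AML 1 and 2, and in 23.1% of AML 3. In both cases AML 3 alone lay above every other library. Tnfrsf18, another gene of the 16 in the regulatory list, did not follow, at 3.08% in AML 3 and 4.48% in normal 1. Among unmixed cells AML 3 was still highest, at 663 CPM of Ikzf2 against 123 to 289 elsewhere, while the log2 difference of Ikzf2 between the groups was 0.11, against 0.73 in all cells. Foxp3-bearing T cells, 127 in all, held 3274 to 4272 CPM of Ikzf2, against 127 to 247 in the CD4 T cells of 5 libraries and 904 in those of AML 3. What part of these values comes from regulatory cells without a Foxp3 UMI was not tested.

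Expression was then compared between AML and normal lung in all 773 cells, summed per library and fitted with edgeR's quasi-likelihood test. No gene of 7481 tested passed an adjusted p of 0.05 (0%), while 458 (6.12%) had an unadjusted p under 0.05, 2.86% of those tested being higher and 3.26% lower in AML lung. In 470 genes (6.28%) every AML library lay above every normal library, and in 499 (6.67%) every AML library lay below. DESeq2 called 12 of 5388 genes on the same counts. The genes below are therefore given as values, in CPM scaled by the trimmed mean of M-values (TMM), and the rule that chose them is in the methods.

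**Figure D3:**
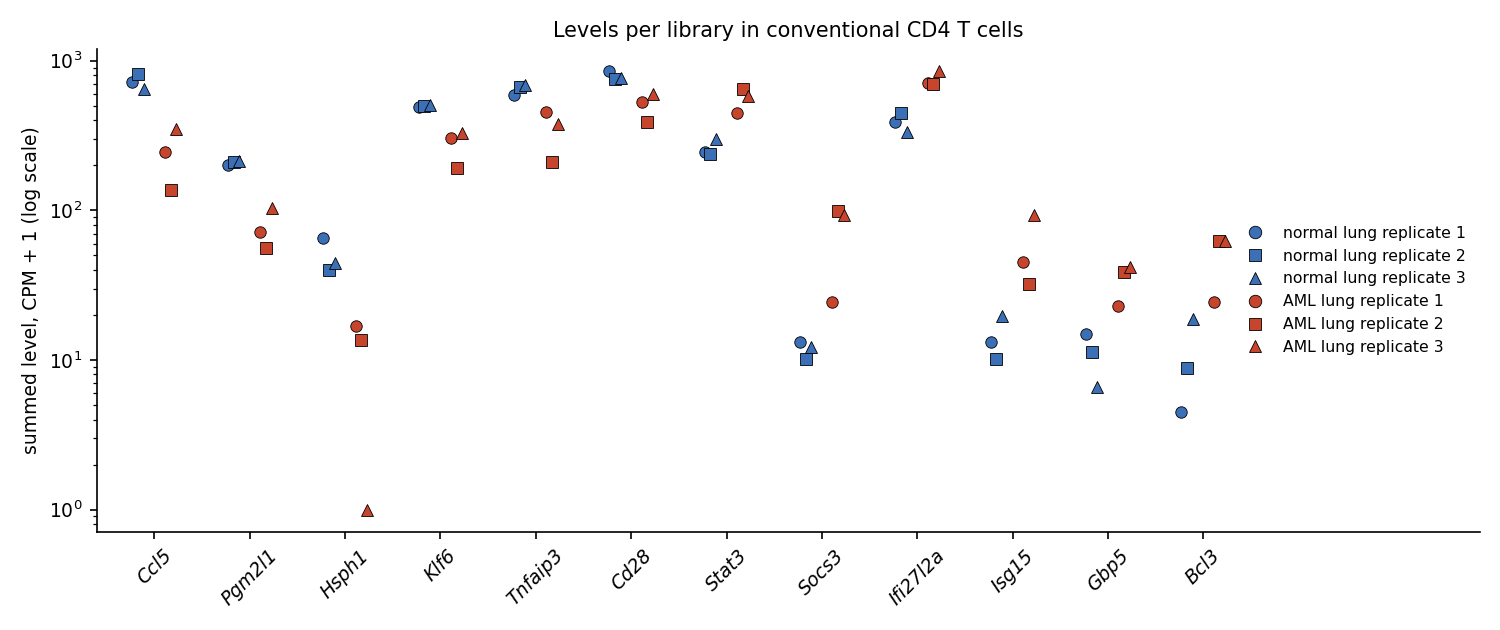
TMM-scaled CPM plus 1, on a log axis, of 12 genes in the conventional CD4 T cells of each library. For each of these genes the 3 AML libraries lie wholly above or wholly below the 3 normal libraries; the Hsph1 point of AML 3 stands for 0 UMIs.

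Genes of the type I interferon response lay mostly on the higher side. Type I interferon is the antiviral cytokine whose receptor signals through STAT and IRF transcription factors, and Isg15, Ifit3, Zbp1 and Rtp4 are among its classical targets. Of 42 genes in the list, 35 passed the filter on low counts, and 11 of these had an unadjusted p under 0.05, all higher in AML lung, where 2.86% of all genes did. Their median log2 difference was 0.43, against 0.01 over all genes tested, and 30 of the 35 were on the higher side. In 13 of the 35 every AML library lay above every normal one, where 6.28% of all genes tested did.

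Ifi27l2a, an interferon-induced protein of the mitochondrial membrane (chr12:103442167-103443680 in mm10), stood at 386, 447 and 332 CPM in normal 1, 2 and 3 and at 705, 695 and 848 in AML 1, 2 and 3. All AML libraries were above all normal libraries, and the log2 difference was 0.93 (SE 0.19, edgeR adjusted p = 0.596). Isg15, a ubiquitin-like modifier (chr4:156199424-156200818), stood at 12.1, 9.08 and 18.6 CPM in normal and 44.0, 31.3 and 91.9 in AML libraries. The groups did not overlap, although AML 3 rests on 9 UMIs (log2 difference 1.71, SE 0.45, edgeR adjusted p = 0.734). For other genes too, AML 3 values of 91.9 CPM or less rest on 9 UMIs or fewer. Ly6a, an interferon-induced surface antigen of T cells, stood at 147, 175 and 112 CPM in normal and 269, 235 and 552 in AML libraries. Rtp4, Zbp1, Oasl2, Ifi206 and Trim30a also had no overlap, with log2 differences of 1.27, 1.04, 1.54, 0.55 and 0.54. Irf7 had a log2 difference of 0.70 and Bst2 one of 0.16, and the list also held Ly6c2 at -0.81, a gene shared with monocytes. Of these, all but Ifi27l2a, Isg15 and Ly6a were chosen after their values were seen.

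The promoters of 3 interferon-response genes and of Socs3 are shown because these genes were higher in each AML library and carry the motif of their known regulators upstream of the start site. The AML 3 value of Ifit3 rests on 1 UMI. Sequences are from RefSeq on GRCm38.p6, 5′ to 3′ on the gene's strand, upstream of the RefSeq start site and without bases of an annotated exon of the gene, with motif matches in capitals. Those of Gbp5 and Socs3 lie within an intron of a longer annotated transcript of the gene. The interferon-stimulated response element was searched as GAAA followed after any 2 bases by GAAA, on both strands, and the STAT site of Socs3 as TTCNNNGAA, which reads the same on both.
Isg15, chr4:156200819-156201068, - strand: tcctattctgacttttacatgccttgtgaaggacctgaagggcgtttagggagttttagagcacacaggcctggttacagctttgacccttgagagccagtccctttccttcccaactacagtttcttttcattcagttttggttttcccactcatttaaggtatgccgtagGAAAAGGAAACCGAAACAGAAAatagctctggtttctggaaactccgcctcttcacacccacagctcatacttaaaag
Ifit3, chr19:34583279-34583528, + strand: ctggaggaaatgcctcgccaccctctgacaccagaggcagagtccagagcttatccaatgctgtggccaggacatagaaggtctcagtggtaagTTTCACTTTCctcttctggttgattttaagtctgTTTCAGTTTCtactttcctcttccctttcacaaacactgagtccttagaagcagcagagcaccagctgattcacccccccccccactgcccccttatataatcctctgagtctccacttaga
Gbp5, chr3:142496684-142496899, + strand: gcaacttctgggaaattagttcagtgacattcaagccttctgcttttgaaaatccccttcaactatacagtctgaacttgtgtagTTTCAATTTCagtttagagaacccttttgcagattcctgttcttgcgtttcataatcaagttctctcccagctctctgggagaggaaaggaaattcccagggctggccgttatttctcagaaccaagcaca
Socs3, chr11:117969452-117969616, - strand: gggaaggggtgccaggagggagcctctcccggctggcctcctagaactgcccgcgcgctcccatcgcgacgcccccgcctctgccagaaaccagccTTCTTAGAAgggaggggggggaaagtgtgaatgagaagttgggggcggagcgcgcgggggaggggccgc
Isg15 has 3 matches that overlap one another, Ifit3 has 2, Gbp5 has 1 and Socs3 has 1 match of the STAT site. Windows of 250 bases before to 50 after the start held the response element in 3.44% of 32851 promoters. It was in 21 of the 46 promoters matched to the type I interferon list (34 of 42 genes) and in 13 of the 30 matched to the interferon gamma list (25 of 33 genes). The STAT site was in 8.30% of all promoters. A match describes the sequence and shows no binding.

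Genes downstream of interferon gamma were less uniform. Of 33 immunity GTPase and antigen-processing genes, 28 were tested, and the median log2 difference was 0.19. At an unadjusted p under 0.05 2 were higher and 1 lower, where 2.86% and 3.26% of all genes were. Gbp5, a guanylate-binding protein that acts on intracellular microbes, stood at 13.8, 10.4 and 5.59 CPM in normal and 22.0, 37.5 and 40.9 in AML libraries, without overlap (log2 difference 1.71, SE 0.45, edgeR adjusted p = 0.734). Iigp1, an immunity-related GTPase, stood at 31.1, 66.2 and 53.1 CPM in normal and 92.9, 86.3 and 81.7 in AML libraries, also without overlap. The lower gene was Irf8, which B cells and myeloid cells express strongly (log2 difference -1.61).

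The list was also on the higher side in CD8 T and B cells, but not in Foxp3 T cells. It had 14 of 38 genes with an unadjusted p under 0.05 and higher in AML lung in CD8 T cells, where 5.01% of all genes did, and 22 of 40 in B cells, where 6.32% did. The medians were 0.44 in CD8 T cells and 0.60 in B cells. Some markers of other cells were also higher in AML lung in all 3 cell types. In the CD4 T cells 3 of 4 neutrophil, 2 of 5 nonclassical monocyte and 1 of 3 alveolar macrophage markers tested were higher at an unadjusted p under 0.05. That compares with 2.86% of all genes. Of 6 B cell markers 1 was lower, and 0 of 5 classical monocyte and 0 of 4 NK markers passed that threshold. In B cells 11 of 12 nonclassical monocyte, 4 of 9 neutrophil and 3 of 10 NK markers tested were higher at an unadjusted p under 0.05, and in CD8 T cells 4 of 7 nonclassical monocyte and 3 of 4 neutrophil markers were. Their part in the interferon values was not tested. In Foxp3 T cells, fitted on normal 2 and 3 and AML 2 and 3, 16 genes of the list were tested. Of these, 1 was higher and 2 were lower at an unadjusted p under 0.05, where 3.52% and 3.21% of all genes were, 6 lay on the higher and 10 on the lower side, and the median was -0.15. Ifi27l2a had a log2 difference of 0.05 in Foxp3 T cells, and its difference from the CD4 T cells did not pass the interaction test (edgeR adjusted p = 1). No interferon gene passed the test of a difference between CD4 and CD8 T cells, and for Ifi27l2a that difference was 0.00 on the log2 scale (SE 0.16).

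**Figure D4:**
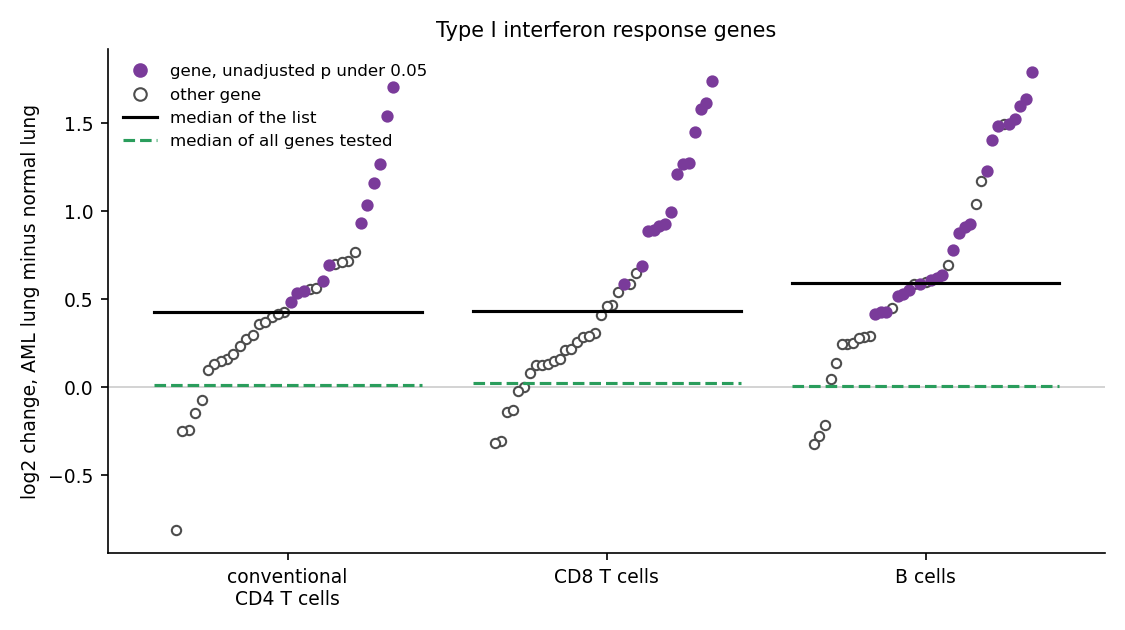
Log2 difference between AML and normal lung of each tested gene of the type I interferon list, sorted, in conventional CD4 T cells (35 genes), CD8 T cells (38) and B cells (40); filled points have an unadjusted edgeR p under 0.05, and lines mark the median of the list and of all genes tested. All 3 list medians lie above the median of all genes, and every filled point is above 0.

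Of 29 cytokine receptor and signalling genes tested, 3 did not overlap between the groups, Stat3 and Socs3 on the higher and Il6st on the lower side. That count is not above the 13% of all genes tested that did not overlap. IL-6, IL-10 and IL-21 signal through Stat3. Stat3 itself (chr11:100885098-100939540) stood at 246, 236 and 299 CPM in normal and 445, 645 and 582 in AML libraries. Every AML library was above every normal one, with a log2 difference of 1.09 (SE 0.20, edgeR adjusted p = 0.552). Socs3, the feedback inhibitor that Stat3 induces (chr11:117966079-117970047), stood at 12.1, 9.08 and 11.2 CPM in normal and 23.2, 97.5 and 91.9 in AML libraries. AML 1 was nearest to the normal libraries (log2 difference 2.58, SE 0.55, edgeR adjusted p = 0.596), and among unmixed cells AML 3 came down to 18.9. The unmixed cells of AML 3 hold only 47275 UMIs in all, so the 18.9 rests on very few UMIs. Bcl3, an atypical NF-kB inhibitor family member that Stat3 can also induce, stood at 3.46, 7.78 and 17.7 CPM in normal and 23.2, 61.3 and 61.3 in AML libraries; it was chosen after its values were seen. Of 29 genes tested in the list, only Stat3 and Socs3 on the higher and Il6st on the lower side had an unadjusted p under 0.05, and the median was -0.25. Il6st, the gp130 chain of the IL-6 receptor, stood at 225, 202 and 226 CPM in normal and 167, 161 and 163 in AML libraries (log2 difference -0.41). The differences of Stat3 and Socs3 were 1.19 and 1.80 in CD8 T cells and 0.82 and 2.12 in B cells, so they too were found outside the CD4 T cells.

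Ccl5, a chemokine of memory and Th1 cells that attracts T cells and monocytes (chr11:83525778-83530518), was the gene with the clearest contrast to CD8 T cells. In the CD4 T cells it stood at 719, 818 and 643 CPM in normal and 246, 135 and 347 in AML libraries. In CPM every AML library was below every normal library, with a log2 difference of -1.70 (SE 0.30, 95% interval -2.28 to -1.12, edgeR adjusted p = 0.441). The share of cells with a Ccl5 UMI overlapped between the groups. At equal depth it was 13.4%, 7.52% and 11.3% of normal and 5.83%, 3.43% and 9.23% of AML cells (exact permutation p = 0.2). Unthinned, it was 20.9%, 12.8% and 23.5% of normal and 10.0%, 7.43% and 15.4% of AML cells. Among unmixed cells Ccl5 stood at 466, 686 and 726 CPM in normal and 263, 118 and 171 in AML libraries, and there Ccl5 fell (log2 difference -1.73, SE 0.27, edgeR adjusted p = 0.0147). The AML 3 value there rests on 9 Ccl5 UMIs among 47275 UMIs in 39 cells, of which 0 had 5 or more. The 5 richest unmixed cells held 96.3%, 90.3% and 45.1% of the Ccl5 UMIs in normal 1, 2 and 3. Over 17 fits the difference ran from -2.02 to -1.37 with adjusted p from 3.5e-08 to 0.986, and 6 of the fits called it.

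In CD8 T cells Ccl5 was at 799, 903 and 809 plain CPM in normal and 766, 1293 and 3514 in AML libraries. The AML libraries lay on both sides of the normal ones there, with AML 3 far above. An edgeR interaction test with the library as a block compared the AML difference of the 2 cell types. Of 8859 genes 1 passed (0.0113%), and it was Ccl5, with a difference of -2.47 between the types (SE 0.31, edgeR adjusted p = 0.0208). The adjusted p was 0.0524 without normal 2, 0.205 without AML 2 and 0.248 without AML 3, with differences of -2.47, -2.14 and -2.26.

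Few cells carried the Ccl5 signal. Cells with 5 or more Ccl5 UMIs numbered 8, 10 and 20 in normal 1, 2 and 3 and 6, 6 and 2 in AML 1, 2 and 3. The 5 richest cells held 87.5%, 87.8% and 41.9% of the Ccl5 UMIs in normal and 91.5%, 86.1% and 85.3% in AML libraries. Cells that also had an Nkg7 UMI held 99.3%, 70.2% and 90.6% of them in normal and 99.0%, 40.7% and 70.6% in AML libraries. In 5 of the 6 libraries most Ccl5 UMIs thus lay in cells with this cytotoxic transcript. B cells had 5.33, 16.9 and 50.9 plain CPM in normal and 91.6, 138 and 277 in AML libraries, all AML libraries above all normal ones. The source of the B cell values was not tested.

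**Figure D5:**
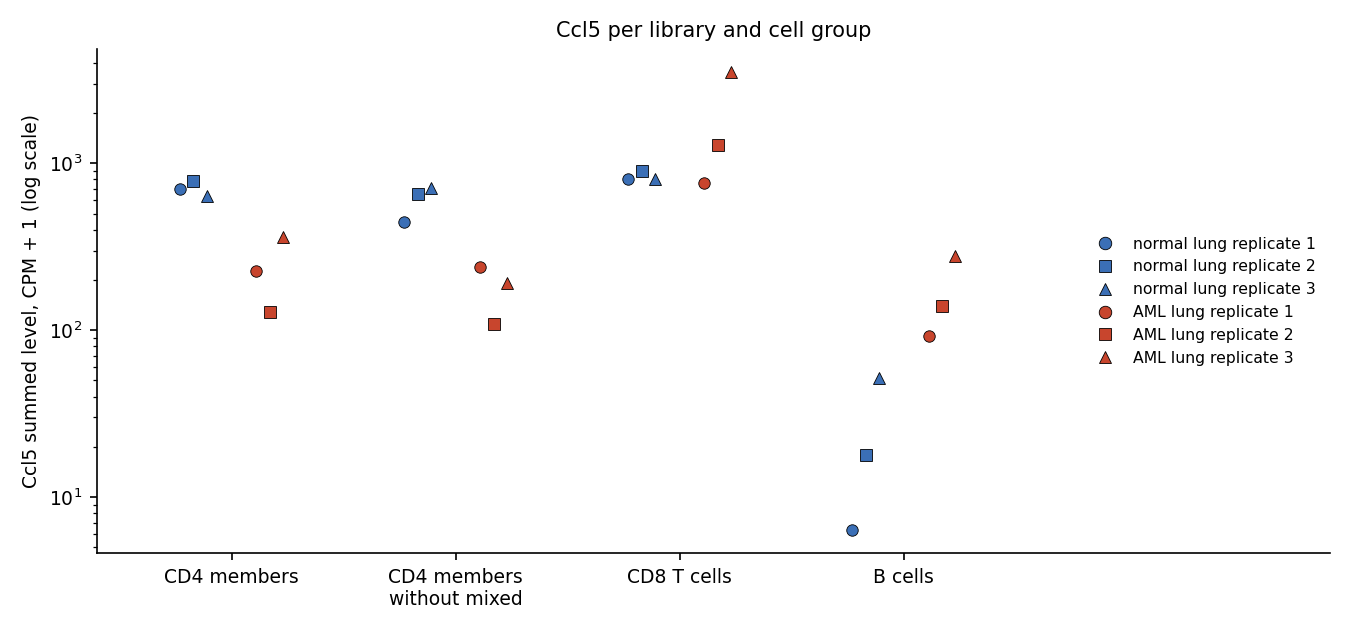
Ccl5 in plain CPM plus 1, on a log axis, per library in conventional CD4 T cells, in the same without mixed cells, in CD8 T cells and in B cells. In the CD4 T cells all AML points are below all normal points, while in B cells all AML points are above them.

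Other Th1 and cytotoxic genes were mostly on the lower side. Of 14 Th1 genes, all tested, 4 had an unadjusted p under 0.05 and were lower (Ccl5, Tbx21, Nkg7 and Ifng), 1 was higher, and the median log2 difference was -0.55. Over all genes tested, 3.26% were lower and 2.86% higher at that threshold, and the median was 0.01. Tbx21 stood at 77.8, 50.6 and 79.2 CPM in normal and 25.7, 37.5 and 61.3 in AML libraries, and Nkg7 at 171, 63.6 and 124 in normal and 59.9, 32.5 and 81.7 in AML libraries. For each of them AML 3 reached into the normal range. Ifng, the Th1 cytokine, stood at 22.5, 19.5 and 18.6 CPM in normal, 3.67 and 5.0 in AML 1 and 2 and 30.6 in AML 3. NK cells carry Nkg7, Ifng and Ccl5 too, and the 11 NK markers summed to 481, 214 and 337 plain CPM in the CD4 T cells of normal 1, 2 and 3, to 204 and 237 in those of AML 1 and 2 and to 1287 in AML 3. In unmixed cells the NK sum was 53.2 to 117 in normal, 126 and 87.1 in AML 1 and 2 and 465 in AML 3. Of 9 cytotoxic genes tested, Ccl5 and Nkg7 were the 2 with an unadjusted p under 0.05, and the median was -0.84.

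Pgm2l1, a glucose-1,6-bisphosphate synthase (chr7:100227394-100278868), had the smallest p of all genes. It stood at 199, 210 and 212 CPM in normal and 70.9, 55.0 and 102 in AML libraries. The normal libraries were nearly equal and every AML library lay far below them (log2 difference -1.60, SE 0.22, edgeR adjusted p = 0.225). Among unmixed cells Pgm2l1 fell, by 1.74 on the log2 scale (SE 0.23, edgeR adjusted p = 0.00232). It and Ccl5 were the only 2 of 7110 genes called there (0.0281%), and 615 genes had an unadjusted p under 0.05, 3.83% of those tested being higher and 4.82% lower. Pgm2l1 was also lower in CD8 T cells (log2 difference -1.10, SE 0.20), and its interaction did not pass (edgeR adjusted p = 0.998).

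Genes of tissue residency were on the lower side throughout, though none passed. All 13 tested had a negative log2 difference, where 3641 of all 7481 genes did, and the median was -0.56. At an unadjusted p under 0.05 3 of the 13 were lower, where 3.26% of all genes were. These were Ahr, the aryl hydrocarbon receptor of barrier lymphocytes (log2 difference -1.37), Itga1, the collagen-binding CD49a (-1.52), and Rbpj, the Notch effector (-0.99). Ahr stood at 34.6, 25.9 and 25.2 CPM in normal and 12.2, 7.5 and 20.4 in AML libraries, without overlap, although the AML 3 value rests on few UMIs. Itga1 stood at 32.9, 24.6 and 53.1 CPM in normal and 15.9, 12.5 and 0 in AML libraries, where the 0 of AML 3 is out of 93997 UMIs in all. Cxcr6, a chemokine receptor of resident cells, had -0.87 and Cd69 -0.63. In Foxp3 T cells, fitted on normal 2 and 3 and AML 2 and 3, 8 of 10 residency genes tested were on the lower side, with a median of -0.55. At an unadjusted p under 0.05, however, 0 of these 10 were lower and 1 was higher, where 3.21% and 3.52% of all genes were. In CD8 T cells 8 of 14 were on the lower side (median -0.12), and in B cells 5 of 11 (median 0.21).

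T cell receptor signalling and activation genes showed small differences. Of 24 receptor signalling genes none was higher and 3 were lower at an unadjusted p under 0.05, where 2.86% and 3.26% of all genes were. Cd28, the main costimulatory receptor, stood at 851, 756 and 763 CPM in normal and 531, 390 and 603 in AML libraries, without overlap (log2 difference -0.67, SE 0.21, edgeR adjusted p = 0.734). Ptpn22, a phosphatase that restrains receptor signalling, had a log2 difference of -0.66. Of 16 activation genes 3 were lower: Cd40lg at -0.52, and the receptor-induced Nr4a2 and Nr4a3 at -1.06 and -0.96. The 16 naive and recirculating genes held none with an unadjusted p under 0.05, with Il7r at -0.51 and Lef1 at -0.22. Neither the 8 regulatory T cell genes nor the 14 inhibitory receptor genes held any, with Pdcd1 at -0.09 and Ctla4 at 0.44.

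Stress-response genes split. Of 28 immediate early and heat shock genes tested, 5 were lower and 2 higher at an unadjusted p under 0.05. For this list and those below, the shares over all genes were 3.26% lower and 2.86% higher. Hsph1, a chaperone of the HSP110 family, stood at 64.0, 38.9 and 43.8 CPM in normal and 15.9, 12.5 and 0 in AML libraries (log2 difference -1.88, SE 0.41, edgeR adjusted p = 0.596). Klf6, an early-response transcription factor, stood at 493, 498 and 502 CPM in normal and 303, 190 and 327 in AML libraries. Tnfaip3, the NF-kB inhibitor A20, stood at 590, 668 and 688 CPM in normal and 452, 209 and 378 in AML libraries. For all 3 the groups did not overlap. The higher genes, Fosb and Jund, both AP-1 subunits and chosen after their values were seen, had log2 differences of 0.77 and 0.59. Of 14 glycolysis genes 2 were lower (Pfkp and Slc2a1) and 1 higher (Gapdh), of 33 oxidative phosphorylation genes 1 was higher (Atp5g1), and of 21 survival and death genes 2 were lower (Pdcd4 and Txnip) and 1 higher (Fas). In the Th2 list 1 of 7 tested was higher (Pparg), in the follicular helper list 1 of 9 was lower (Il6st), in the Th17 list the 1 gene tested was lower (Tmem176b), and in the trafficking list 0 of 24 passed an unadjusted p of 0.05.

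Several of the largest differences followed AML 3 and markers of other cells. S100a9, a neutrophil alarmin, stood at 17.3, 10.4 and 13 CPM in normal and 109, 17.5 and 572 in AML libraries, and Pparg, Tcf7l2 and Dusp16 were also highest in AML 3, at 347, 419 and 552. The 9 neutrophil markers summed to 43.5 to 196 plain CPM in normal, 375 and 114 in AML 1 and 2 and 1702 in AML 3, and the 12 nonclassical monocyte markers to 302 to 373, 334 and 442, and 1330. The 9 neutrophil precursor markers summed to 11.8 to 42.5 plain CPM in normal, 20.3 and 11.8 in AML 1 and 2 and 447 in AML 3. Of these 9, Elane, Mpo and Ctsg were at 0 in the CD4 T cells of every library. The 15 B cell markers went the other way, at 127, 955 and 2265 in normal and 197, 322 and 1436 in AML libraries, and in unmixed cells at 132 to 215 in normal and 136, 139 and 740 in AML. The part of these transcripts in the differences of single genes was not tested.

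Leaving out both the mixed cells and AML 3, an analysis added after the data were seen, raised the number of called genes. With 3 normal libraries and AML 1 and 2, 158 of 7443 genes passed an adjusted p of 0.05 by edgeR (2.12%), 76 higher (1.02%) and 82 lower (1.1%), while 6.11% were higher and 7.08% lower at an unadjusted p under 0.05. Of the 155 that could be tested with all cells and libraries, 153 had the same sign there. That fit holds the same cells of the 5 libraries, and AML 3 adds only 93997 UMIs. The shared sign is therefore no independent support. Set beside AML 3, 34 of the 82 lower genes were also lower in AML 3 than in every normal library, and 22 of the 73 higher genes tested there were also higher in AML 3 than in every normal library. The rest are thus shown by AML 1 and 2 alone. Without AML 3 but with mixed cells kept, 3 of 8028 genes passed (0.0374%), all lower: Pgm2l1, Ccl5 and Fkbp5, the last a glucocorticoid-induced chaperone, with log2 differences of -1.73, -1.94 and -1.43. At an unadjusted p under 0.05, 4.75% were higher and 6.02% lower there.

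In that comparison of 5 libraries, 2 of 23 trafficking genes fell, Cd44 and Cxcr4, and none rose. Cd44, the hyaluronan receptor of antigen-experienced cells, was at 181, 210 and 224 CPM in normal and 104 and 57.7 in AML 1 and 2 (log2 difference -1.33, SE 0.23, edgeR adjusted p = 0.00382). With mixed cells and AML 3 included, Cd44 stood at 654 CPM in AML 3 and the difference was -0.04. Rora, a nuclear receptor of memory and type 2 cells, was at 618, 540 and 658 CPM in normal and 283 and 277 in AML 1 and 2 (log2 difference -1.11, SE 0.17, edgeR adjusted p = 0.00141), but at 756 in all cells of AML 3. Cxcr4, the receptor for Cxcl12, fell by 1.71 (edgeR adjusted p = 0.00209), Ahnak by 1.31, Id2 by 0.90 and Vim by 0.79 on the log2 scale, and all 4, Cxcr4 aside chosen after their values were seen, were higher in AML 3 than in AML 1 and 2. Cxcr4 stood at 255 CPM in all cells of AML 3, above the 140 to 165 of the normal libraries, and its difference over all cells and libraries was -1.0 (edgeR adjusted p = 0.848). Il1rl1, the IL-33 receptor of Th2 and regulatory cells, was at 18.5, 28.0 and 18.6 CPM in normal and 0 and 4.22 in AML 1 and 2, but at 51.1 in all cells of AML 3, above every normal library. Of 13 residency genes 2 were called lower (Rora and Rgs2), and of 24 receptor signalling genes 2 (Cd28 and Ptpn22). Of 13 Th1 genes 2 were called lower (Ccl5 and Nkg7).

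On the higher side of the comparison of 5 libraries, 39 of the 76 genes were ribosomal proteins, out of 81 tested by name, a list added after the data were seen. Rps20, a small-subunit protein, was at 2571, 3172 and 2909 CPM in normal and 4680 and 5249 in AML 1 and 2 (log2 difference 0.78, SE 0.15, edgeR adjusted p = 0.00686). With all cells it stood at 1859 CPM in AML 3, below every normal library, so the higher level was found in AML 1 and 2 and not in AML 3. Ribosomal transcripts are short and abundant, and 79 of the 81 had a positive difference in all cells and libraries, with a median of 0.32. Of 36 interferon genes 4 rose: Ifi27l2a, Ly6a, Zbp1 and Ifit3. Ifit3, which blocks translation of viral RNA, was at 1.85, 5.61 and 4.38 CPM in normal and 16.3 and 32.4 in AML 1 and 2 (log2 difference 2.50, SE 0.60, edgeR adjusted p = 0.0264), although reads shared with its near-identical copy Ifit3b could have been counted to either gene. Stat3, Socs3 and Bcl3 rose as well, by log2 differences of 1.01, 2.67 and 2.16 (edgeR adjusted p = 0.00567, 0.00567 and 0.0207).

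The AML difference of the CD4 T cells was also compared with that of Foxp3 T cells. Only normal 2 and 3 and AML 2 and 3 held 20 or more Foxp3 T cells, and over these libraries 0 of 4235 genes passed the interaction test (0%; 143 with an unadjusted p under 0.05).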

How the data were processed

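UMI counts per gene and barcode were deposited by the authors as 1 matrix per library. They come from 10x Genomics 3' v3.1 libraries and were made with Cell Ranger 7.0.0 on mm10, per the submitters' processing notes. How barcodes were filtered before deposit and whether intronic reads were counted are not given in the sources used here. Of 73095 barcodes, 71634 with at least 500 UMIs, at least 200 genes and under 10% mitochondrial UMIs were kept. The members and the gene lists were chosen with earlier results of these data known.

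Cells are not replicates, so UMI counts of the members were summed per library (43913245 to 66513826 UMIs per library in all; 93997 to 1083516 over the members). They were tested with edgeR 4.0.16 in R 4.3.3 (TMM scaling, filterByExpr, quasi-likelihood F test, Benjamini-Hochberg adjustment over all genes tested, threshold 0.05). The SE is the log2 difference divided by the root of F. The interaction fits had library as a block. Shares were compared by exact two-sided permutation over 20 arrangements, with scipy 1.17.1 in Python 3.11.15. CD8 T cells were chosen by the same rule with Cd8a or Cd8b1 in place of Cd4, regulatory T cells by Foxp3, and B cells by at least 2 Cd79a UMIs and none of the CD3 complex. A library entered a fit with at least 20 cells. Doublets were predicted with Scrublet in scanpy 1.11.5; in 3 libraries no threshold was found and 0.231 was used. The scripts were tested on simulated data.

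Named genes were those of largest change among called genes, filled up where fewer than 5 passed with genes of average log2 CPM of at least 5, no overlap between groups and an unadjusted p under 0.01, up to 3 of smallest p from each list, and defining subset genes. Others are said to be chosen after their values were seen. Alternatives were DESeq2 1.42.0, other size factors, no filter, a replicate block, leaving out each library, doublets or mixed cells, a higher UMI minimum of 1000, a stricter rule and thinning. The stricter rule asked for at least 2 CD3 complex UMIs. It also allowed no UMI of Mki67, Top2a, Birc5, Cd79a, Plet1, Siglech, Retnlg, Ace or Vcan. Some genes, and a split of the members that needs one of them, are not reported here.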

Additional observations from a re-analysis of the deposited data

Results flagged for a closer look

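Ccl5 differed in its response between CD4 and CD8 T cells by the test of the difference itself. Its log2 difference between AML and normal lung was -1.70 in CD4 T cells and 1.14 in CD8 T cells, and the interaction was -2.47 (SE 0.31, edgeR adjusted p = 0.0208 over 8859 genes). Of 10 fits of this interaction, 7 called it, with values from -3.13 to -2.14. The call was lost without normal 2, AML 2 or AML 3 (edgeR adjusted p = 0.0524, 0.205 and 0.248). Without mixed cells of either type it was -2.32 (edgeR adjusted p = 9.37e-07).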

How the results depend on the processing

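Changes to the processing moved how many genes passed in all CD4 T cells. edgeR's count of 0 became 12 with DESeq2 (7 higher, namely Fcgr4, Tgm2, Pparg, Dusp16, Stat3, Socs3 and Ifi27l2a, and 5 lower, namely 4932438A13Rik, Pgm2l1, Ccl5, Gm42418 and Zfp36l2), 147 without the filter on low counts (69 higher, 78 lower), 1 after thinning to 500 UMIs (Ccl5), 2 without mixed cells and 158 when AML 3 was left out as well. Leaving out 1 library gave 0 to 3 genes, the 3 without AML 1 being Gm12840, Pparg and Socs3. The single CD4 to CD8 interaction gene became 0 to 28 over libraries left out (28 without normal 1, 2 without AML 1, which were Il1b and Ccl5) and 11 without mixed cells. The interaction with Foxp3 T cells, 0 genes, ranged from 0 to 34 (34 without normal 2, 16 without normal 3, 10 without AML 3) and was 1 in cells of at least 1000 UMIs, H2-Eb1. The cause of these shifts was not tested.

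The mean share of CD4 T cells was lower in AML lung in every setting run, with differences of -1.39 to -0.161 percentage points over libraries left out and of -0.0168 after thinning to 500 UMIs (exact permutation p = 1). The CD4 to CD8 log2 ratio turned from -0.31 to 0.0215 after thinning and to 0.172 without AML 3, with a range of -0.821 to 0.172 over libraries left out. Zeb2 turned from 0.51 to -1.86 in the 5 libraries without mixed cells. Values under alternatives numbered 1727, over 117 results on named genes. Of these, 1614 kept their side of the threshold and either kept their direction or stayed within 1 SE of the main value. With the direction kept, 81 passed the threshold newly and 3 lost it. In 28 the direction changed by more than 1 SE without a call in either fit, and in 1 it changed with a call. The adjusted p of Ccl5 ranged from 3.5e-08 to 0.986.

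Replicate numbers are shared between the groups, but nothing in the labels says that they pair libraries. The deviations of same-numbered libraries correlated at 0.338, 0.0937 and 0.412 over 3064 genes, and AML 2 correlated best with normal 1. With the replicate number as a block 0 genes passed (552 with an unadjusted p under 0.05), and the share differed by -0.765 as without it. Fits that leave out normal 1 or AML 1 from the Foxp3 interaction were not run, because those libraries had under 20 Foxp3 T cells and were already out. Depth limits AML 3, where the members hold 93997 UMIs.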
